A study of Mus musculus with 288 samples.

Results

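Cyclic nucleotide and G protein signalling genes are described here across single enteroendocrine cells of the mouse upper small intestine. The genes were chosen by name: symbols that start with Adcy (adenylyl cyclases), Pde and a digit (phosphodiesterases), Prka (subunits of protein kinase A and of AMP-activated kinase), Rapgef (exchange factors for Rap), Gucy (guanylyl cyclases), Gnb and Gng (G protein beta and gamma subunits), and the alpha subunit genes Gnas, Gnal, Gnaq, Gna11, Gnai1, Gnai2, Gnai3, Gnao1 and Gnaz. The rule takes in 104 symbols of the annotation, of which 101 are among the 46078 mouse genes of the count table and 3 (Pde2a and the pseudogenes Gnb1-ps2 and Gnb1-ps3) are not used here because no line carries their identifier. Of the 101 members, 91 are protein coding, 95 had at least 1 read in the cells used and 50 passed the filter on low counts and were tested.

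The cells came from GLU-Venus mice, in which the proglucagon promoter drives the fluorescent protein Venus, so that cells which switch on Gcg, the gene of glucagon-like peptide-1, can be sorted. Cells without Venus fluorescence were sorted as controls too, and the labels do not say which of the cells they are. All cells were from male mice aged 20 to 21 weeks, 3 in number, and from the proximal small intestine. Single cells were sorted into wells and sequenced by Smart-seq2, which reads full-length cDNA and adds no molecular identifiers. The labels put the 288 cells into 3 pools of 96 (SLX-11175, SLX-11179 and SLX-9703) and call all of them L-cells, with neither the mouse nor the Venus fluorescence of a cell. The pool is the unit of comparison. With pools blocked, p-values measure how far differences between classes vary over the 3 pools, with an estimate of the spread that all classes share. Cells with at least 20000 reads on mouse genes and at most 20% of them mitochondrial were used (75, 87 and 88 cells of the pools in that order, 250 in all).

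Within each pool, cells with at least 10000 CPM of Gcg (reads of a gene scaled to a common library size) were called Gcg-high, cells with at least 10000 CPM of Gip, the gene of the incretin GIP, Gip-high, and cells with at least 100 CPM of Pzp, which encodes a protease inhibitor, Pzp-positive. The pools held 16, 18 and 19 Gcg-high cells, 10, 5 and 10 Gip-high cells, and 14, 22 and 28 Pzp-positive cells. A further 5 cells passed more than 1 threshold and were left out, and 103 passed none. The lowest level inside and the highest outside a threshold were 11122 and 9545 CPM for Gcg, 10822 and 9169 CPM for Gip, and 104 and 92.2 CPM for Pzp. Read counts were summed per pool and class, and a level below is the CPM of such a sum after scaling by the trimmed mean of M values (TMM), divided by the summed exon length in kb where genes are compared with each other.

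Receptors that couple to Gs release an alpha subunit that activates adenylyl cyclases, and those that couple to Gi release one that inhibits them, while the beta and gamma subunits act as a pair on channels and enzymes. Cyclic AMP opens the regulatory subunits of protein kinase A (PKA) and activates the exchange factors Rapgef3 and Rapgef4, also called Epac1 and Epac2, and phosphodiesterases end the signal. In enteroendocrine cells a rise of cyclic AMP is a known trigger of hormone secretion, and guanylyl cyclase C (Gucy2c) is the receptor for guanylin, uroguanylin and bacterial heat-stable toxins on intestinal epithelium.

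The upstream sequences of Prkar1a, the leading PKA gene, and of Prkaa2, the member that passed the test below, are shown because cyclic AMP acts on transcription through the cAMP response element, bound by CREB. The element was searched as TGACGTCA, which reads the same on both strands, and by its first part TGACG on both strands (CGTCA on the other), in the 250 bases before each start in the RefSeq table of GRCm38.p6, which holds windows for 77 of the 101 members. TGACGTCA was present for 1 of 77 members, Prkar1a, and for 1.77% of all genes of the table, and TGACG, which lies within it, for 24 of 77 members and 19.8% of all genes. A gene can have more than 1 window, and members had more of them per gene (125 for 77 members, 32851 for 27025 genes). Per window, TGACG was present in 23.2% of those of members and 17.8% of all, a difference that was not tested. The 2 stretches below hold no base of an annotated exon, run from 5′ to 3′ on the strand of the gene, and have the matches in capitals. That of Prkar1a is chr11:109650699-109650920 on the plus strand, where TGACGTCA begins 49 bases before one of the 6 starts that the table gives for this gene. The start was chosen because its window holds the element, and it lies inside the gene as GENCODE draws it (from 109649405). For this start 222 of the 250 bases are printed, because those nearest to it lie in an annotated exon. That of Prkaa2 is chr4:105109899-105110148 on the minus strand, with CGTCA 196 bases before its only listed start. A match describes the letters only.
Prkar1a: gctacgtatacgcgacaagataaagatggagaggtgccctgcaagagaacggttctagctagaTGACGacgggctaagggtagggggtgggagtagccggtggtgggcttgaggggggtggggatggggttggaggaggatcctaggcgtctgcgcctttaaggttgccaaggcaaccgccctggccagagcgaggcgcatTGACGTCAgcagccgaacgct
Prkaa2: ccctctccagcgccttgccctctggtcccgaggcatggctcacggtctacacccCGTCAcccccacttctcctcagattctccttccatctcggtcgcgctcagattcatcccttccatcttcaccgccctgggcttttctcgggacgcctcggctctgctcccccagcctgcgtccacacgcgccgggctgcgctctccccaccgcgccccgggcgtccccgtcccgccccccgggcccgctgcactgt

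Most marker genes of the study's cell groups were highest in the class they stand for, where Gcg, Gip and Pzp themselves define the classes, but not all were. Abcc8, the sulfonylurea receptor, listed for the Gcg group, stood at 243, 187 and 415 CPM in Gip-high and 129, 129 and 108 CPM in Gcg-high sums. Chgb, a granin of secretory granules, was present in every sum, from 989 CPM in the Gip-high cells of pool SLX-11175 to 21791 CPM in the Gcg-high cells of pool SLX-9703. Tph1, the enzyme that starts serotonin synthesis, ran from 150 to 401 CPM in Pzp-positive sums and was under 1 CPM in Gcg-high and Gip-high sums. Pool SLX-9703 was sequenced deeper: the median cell had 62648, 71331.5 and 2400022 reads in the Gcg-high class of the 3 pools, 28664.5, 110587 and 831266.5 in the Gip-high class, and 56571, 67984 and 2147106 in the Pzp-positive class. A single read was worth 3.57 CPM in the shallowest sum (Gip-high, SLX-11175) and 0.0114 CPM in the deepest (Pzp-positive, SLX-9703), and a gene with 0 reads may stand at up to 10.7 and 0.0342 CPM there, the level of 3 reads. Gip alone took 28.1%, 44.5% and 37.9% of the reads of the Gip-high sums, and 1 cell gave 35.9%, 39.2% and 22% of the reads of each. Markers of other cell types moved with the classes. For goblet cells, the 5 genes (Muc2, Fcgbp, Clca1, Tff3 and Zg16) summed to 3886 to 4424 CPM in Pzp-positive cells, 388 to 676 CPM in Gcg-high cells and 17.8 to 264 CPM in Gip-high cells. Tff3 gave nearly all of it in the Pzp-positive sums (4230, 3907 and 3698 CPM). Fcgbp stood at 146 to 193 CPM in Pzp-positive sums, Muc2 at no more than 1.13 CPM there, and Clca1 was at 0 in the 3 classes, as were Muc2 and Zg16 in Gip-high sums. The 7 enterocyte genes summed to 666 to 856 CPM in Gip-high, 1642 to 2474 CPM in Gcg-high and 2137 to 2421 CPM in Pzp-positive cells. Sis and Fabp2 led in Gcg-high and Pzp-positive sums and were lower in Gip-high sums in each pool. Fabp1 went the other way, at 132, 63.7 and 167 CPM in Gip-high against 57.5, 28.2 and 49.4 CPM in Pzp-positive sums. The 5 smooth muscle and stroma genes, mainly Vim, summed to 21.4 to 54.6 CPM in Gip-high and 1.16 to 5.63 CPM in the other classes. The 9 endocrine genes summed to 2363 to 8882 CPM in Gip-high, 7086 to 10551 CPM in Pzp-positive and 19912 to 29921 CPM in Gcg-high cells. Chgb and Scg2, both granins, made up most of these sums. The transcription factors Isl1 (311, 699 and 609 against 66.5, 93.3 and 77.2 CPM) and Pax6 (225, 146 and 406 against 62, 39.5 and 115 CPM) stood higher in Gip-high than in Pzp-positive sums. The third transcription factor of the list, Neurod1 (75, 271 and 166 against 415, 616 and 709 CPM), stood lower in each pool. So did Pcsk1 (164, 168 and 187 against 328, 284 and 401 CPM) and Scg2, and the other genes of the list differed in direction between pools. The part of these lists in the results below was not tested. Intervals and floors cover counting error only, since amplified reads are not independent molecules, and in sums of cells fewer transcribing cells and less RNA per cell cannot be told apart.

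The counts of members called between the classes are set beside the shares of all genes. With edgeR (quasi-likelihood, pools blocked, Benjamini-Hochberg adjustment over 9656 genes) 0 of 50 members passed an adjusted p of 0.05 between Gcg-high and Pzp-positive cells, 0 of 50 between Gip-high and Gcg-high cells and 1 of 50 between Gip-high and Pzp-positive cells. Over all genes tested the shares were 0.269%, 1.12% and 2.86%, and 1.76% of all genes were lower in the last comparison, the direction of the 1 member, Prkaa2. The members' counts lie near these shares and are no result about the members as a group. At an unadjusted p under 0.05 the members were Prkag2 in the first comparison (1 of 50, against 4.33% of all genes), Gnai3, Pde4dip, Prkaa2, Prkacb and Prkag2 in the second (5 of 50, against 12.8%), and Gnao1, Pde7a and Prkaa2 in the third (3 of 50, against 14.1%). DESeq2, with no filter on low counts beforehand, called 0 of 88 members in the first comparison (0.787% of all genes), 3 of 83 in the second (Gnb1l, Pde6g and Prkaa2, against 3.32%) and 4 of 76 in the third (the same 3 and Gnao1, against 5.05%).

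Directions over the pools are set beside those of all genes. In Gcg-high over Pzp-positive cells, 12 of 50 members were higher in 3 of 3 pools (16.2% of all genes) and 8 were lower (15.6%). In Gip-high over Gcg-high cells, 4 were higher (10.6%) and 10 lower (22.5%), and in Gip-high over Pzp-positive cells 4 were higher (11.8%) and 8 lower (22.9%). The median log2 fold change of the members was 0.06, -0.06 and -0.07 in the 3 comparisons, and that of all genes 0.01, -0.24 and -0.24. The comparisons share classes, so they are not independent of each other. The median standard error of a member's log2 fold change was 0.81, 0.86 and 0.87. A typical member's difference of about that size, or well above it, could not be told from 0 with 3 pools. Even Gnao1, at 1.53 ± 0.47 (SE) in Gip-high over Pzp-positive cells, had an adjusted p of 0.112 (edgeR).

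**Figure D1:**
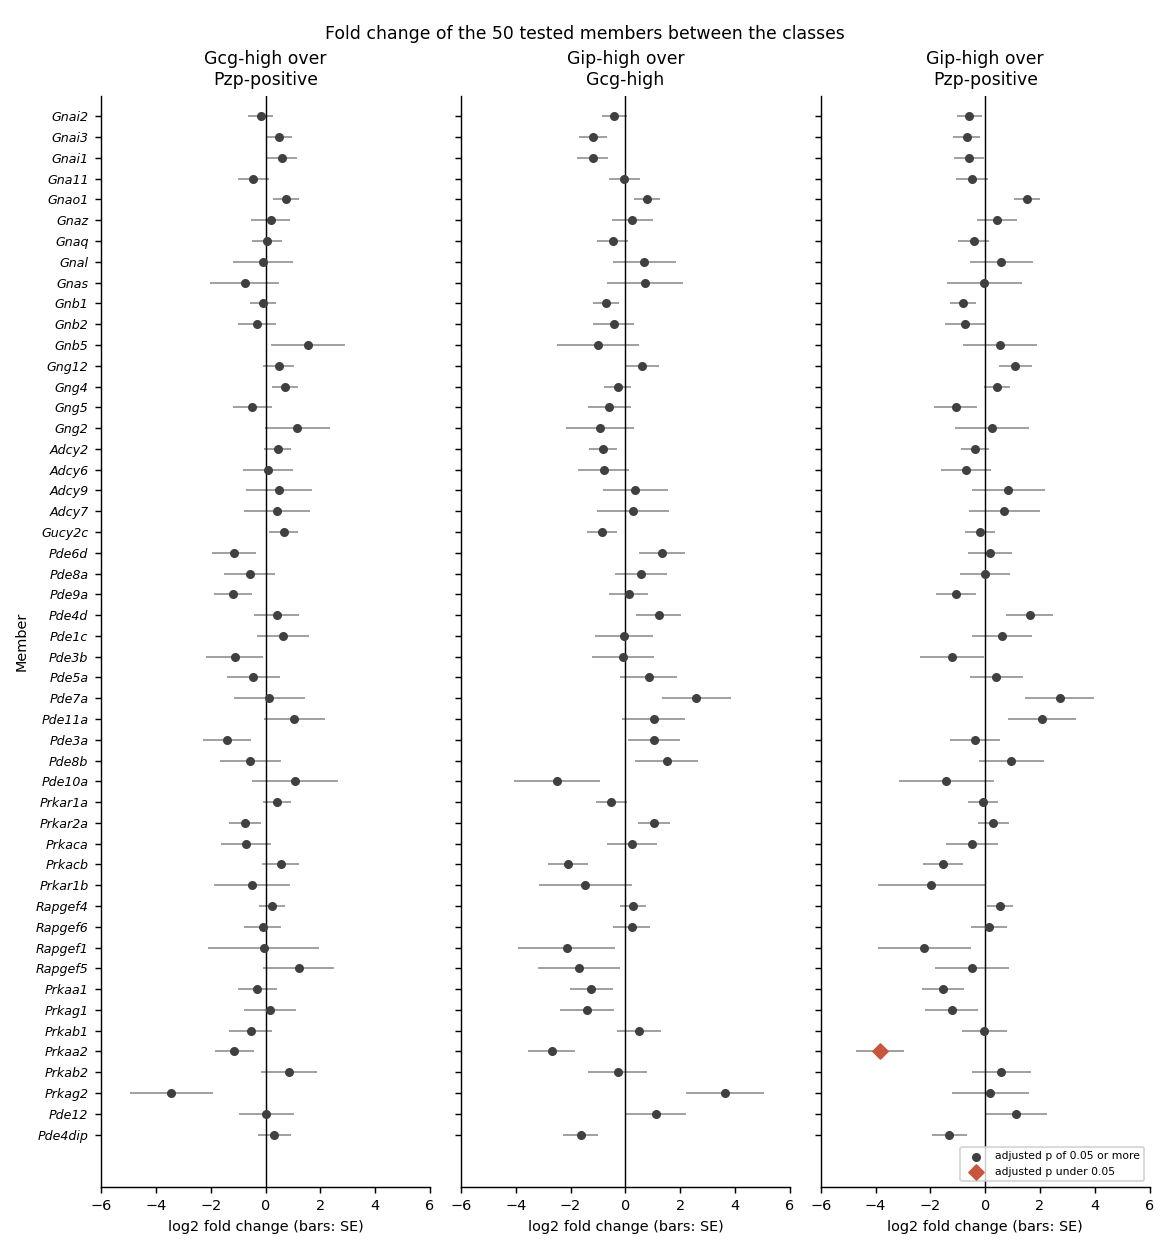
Log2 fold change (x axis) of the 50 tested members (y axis, ordered by family) in the 3 comparisons, with the standard error of edgeR's fit as bars. The red diamond marks Prkaa2 at -3.84 in Gip-high over Pzp-positive cells, the only point with an adjusted p under 0.05 and the other points did not pass.

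The levels themselves set the members apart more than the classes did. Over the mean of the 3 classes, 6 members stood at 30 CPM per kb or more, in the order Gng12 (59.3), Prkar1a (59), Gnb1 (49.5), Gucy2c (42.9), Gng4 (37) and Gnai2, and 14 stood at 10 CPM per kb or more. The order differed between the classes: by class mean per kb, Prkar1a led in Gcg-high, Gng12 in Gip-high and Gnb1 in Pzp-positive cells. In the Gip-high sum of pool SLX-11179 a single cell gave 55% of the Gng12 reads. In most families 1 or 2 genes held most of the summed level: Gnb1 and Gnb2 among beta subunits, Gng12 and Gng4 among gamma subunits, Adcy2 among adenylyl cyclases, Gucy2c among guanylyl cyclases, Prkar1a among PKA subunits (all sums but Gip-high of pool SLX-11175) and Rapgef4 among the exchange factors. The alpha subunits, the phosphodiesterases and the AMP-activated kinase subunits were spread over several genes.

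**Figure D2:**
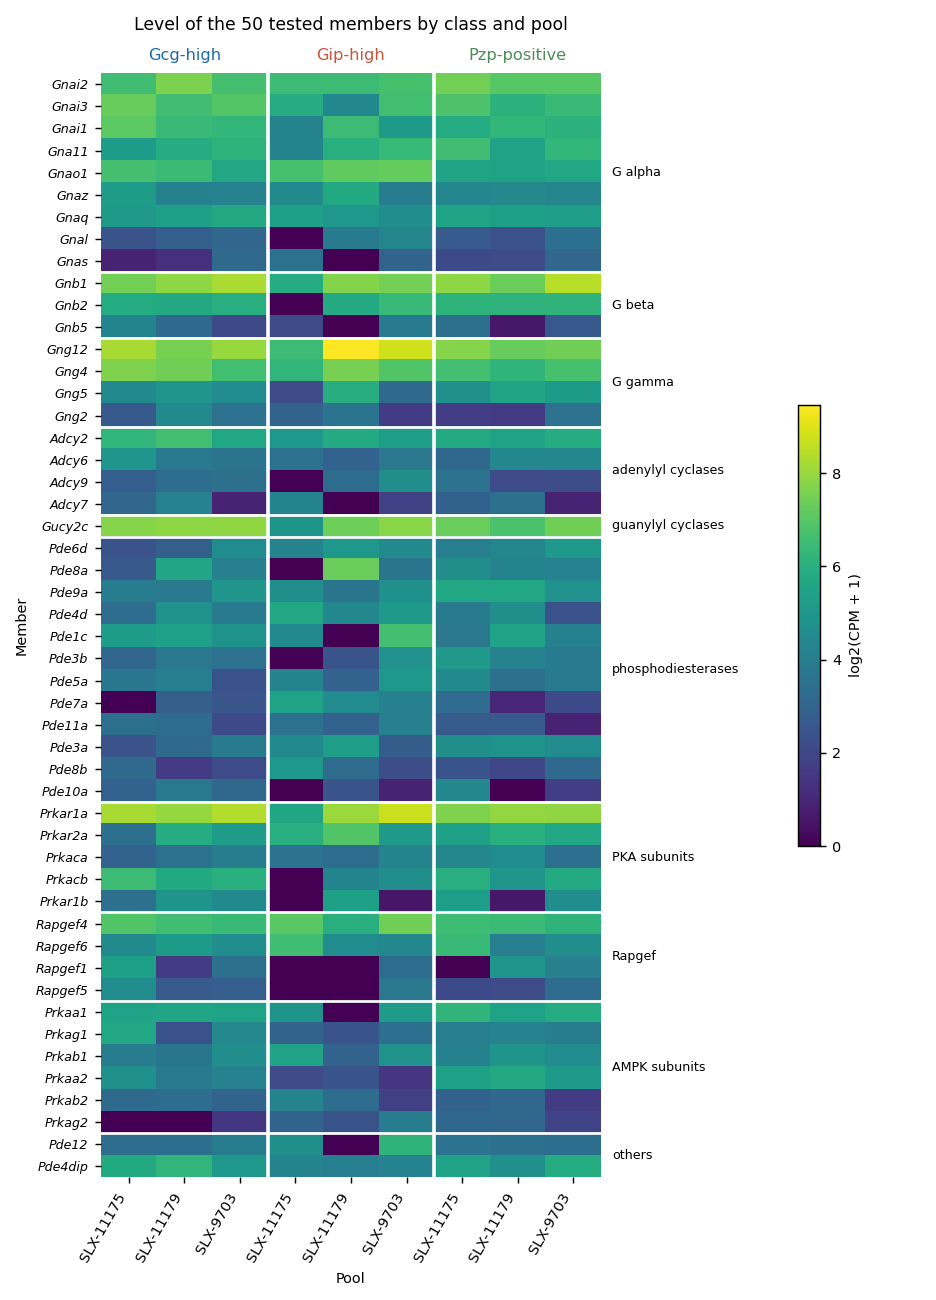
Level of the 50 tested members (y axis, ordered by family) in the 9 sums of 3 classes and 3 pools (x axis), as log2(CPM + 1) on the colour scale. Gng12, Prkar1a, Gnb1 and Gucy2c are bright in nearly all columns, and the dark cells at 0 lie mostly in the shallow Gip-high columns of pools SLX-11175 and SLX-11179.

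Among alpha subunits, the genes of the inhibitory class led. Gnai2 stood at 95, 192 and 102 CPM in Gcg-high sums (in the order SLX-11175, SLX-11179, SLX-9703, kept throughout), 89.2, 88.8 and 105 CPM in Gip-high sums and 175, 127 and 128 CPM in Pzp-positive sums. The 3 classes overlapped except that each Gip-high sum lay below every Pzp-positive one, by a log2 fold change of -0.59 ± 0.45 (SE, adjusted p = 0.64, edgeR). Gnai3 was at 155, 94.2 and 121 CPM in Gcg-high, 57.1, 20.5 and 95.8 CPM in Gip-high and 112, 67.7 and 83 CPM in Pzp-positive sums. It was lower in Gip-high than in Gcg-high cells in each pool, with a log2 fold change of -1.18 ± 0.50, an unadjusted p of 0.034 and an adjusted p of 0.335 (edgeR), so that it did not pass. Gnai1, the third gene of the class, was at 76.9 to 136, 17.8 to 88.8 and 56.3 to 75.9 CPM in the Gcg-high, Gip-high and Pzp-positive sums.

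Gnao1, the Go subunit of neurons and endocrine cells, was the member nearest to a call after Prkaa2. It stood at 104, 143 and 149 CPM in Gip-high sums, 101, 85.8 and 49.4 CPM in Gcg-high sums and 45.1, 44.1 and 48.7 CPM in Pzp-positive sums. The Gip-high values were above all the others, the Pzp-positive ones were the lowest and hardly varied, and the Gcg-high ones lay between. Gip-high exceeded Pzp-positive sums by 2.30, 3.25 and 3.06 times in the 3 pools (95% counting intervals 1.37 to 3.80, 2.31 to 4.55 and 2.88 to 3.24). The log2 fold change was 1.53 ± 0.47 with an unadjusted p of 0.00559 and an adjusted p of 0.112 (edgeR), and over 20 alternatives it ran from 1.37 to 1.94 with adjusted p-values from 0.0193 to 0.418, under 0.05 in 4 of them. In pool SLX-11179 a single cell gave 85.7% of the 63 Gnao1 reads of the Gip-high sum. Per cell, all 10 Gip-high and 19 Gcg-high cells and 27 of 28 Pzp-positive cells of pool SLX-9703 had a read of Gnao1, with medians of 61.8, 40.4 and 59.9 CPM of the reads of the cell, an order in which Pzp-positive cells were not the lowest. These medians carry no TMM scaling, whereas the sums of this pool were scaled by factors of 0.76, 1.31 and 1.51 in the same order of classes. Divided by these factors, the medians would still be lowest in Gcg-high and not in Pzp-positive cells. The Gcg-high and Pzp-positive sums of this pool were close, at 49.4 and 48.7 CPM.

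Gnaq, which activates phospholipase C beta, held 23.8 to 52.8 CPM in the 9 sums, and Gna11, its close relative, 17.8 to 93.5 CPM, with overlap of all classes for both. In the cells past no threshold Gna11 stood at 98.4, 127 and 170 CPM, above every sum of the 3 classes. Gnaz, a Gi relative insensitive to pertussis toxin, was at 15 to 52.4 CPM. Gnal, the olfactory Gs relative, was at 0 to 18.9 CPM. Gnas, the stimulatory subunit itself, had only 0.863, 1.40 and 8.59 CPM in Gcg-high, 10.7, 0 and 7.18 CPM in Gip-high and 3.38, 3.59 and 7.68 CPM in Pzp-positive sums, from 1734 reads in all 250 cells. The exons of Gnas overlap those of Nespas and Gm20721 on the other strand over 22% of their length in the annotation used here, and HTSeq gives a read on more than 1 gene to none of them when strand is not used, so its level and its rank among the alpha subunits are uncertain.

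Among beta subunits Gnb1 held 59.6 to 87.1% of the summed CPM per kb. It was at 176, 229 and 304 CPM in Gcg-high, 57.1, 207 and 181 CPM in Gip-high and 233, 160 and 353 CPM in Pzp-positive sums. The Gip-high value was the lower one in each pool beside Gcg-high, but the ranges overlapped (log2 fold change -0.72 ± 0.47, adjusted p = 0.592, edgeR). Gnb2 followed at 0 to 82.4 CPM, and Gnb5, the atypical partner of RGS proteins, was at 0 to 18.1 CPM. Gnb4 had at most 10.7 CPM, which was 3 reads, and Gnb3 had no read in the cells used.

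Gng12 led the gamma subunits. It stood at 300, 184 and 260 CPM in Gcg-high sums, 89.2, 708 and 442 CPM in Gip-high sums and 215, 154 and 169 CPM in Pzp-positive sums. The Gip-high values spanned both the lowest and the highest of the 9, and the difference from Pzp-positive cells did not pass (log2 fold change 1.10 ± 0.60, adjusted p = 0.456, edgeR). Gng4, a gamma subunit of nervous and endocrine tissue, was at 96.2 to 197, 75 to 184 and 71.8 to 103 CPM in the Gcg-high, Gip-high and Pzp-positive sums. Gng2 was among the largest differences of Gcg-high over Pzp-positive cells by the naming rule, with 5.18, 22.3 and 10.6 CPM against 2.25, 2.05 and 10.4 CPM, but its log2 fold change of 1.16 ± 1.18 had an adjusted p of 0.999 (edgeR) and the groups overlapped. Its exons overlap those of Gm48283 on the other strand over 20.4% of their length. Gng13, the gamma subunit of taste and tuft cells, had no read.

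**Figure D3:**
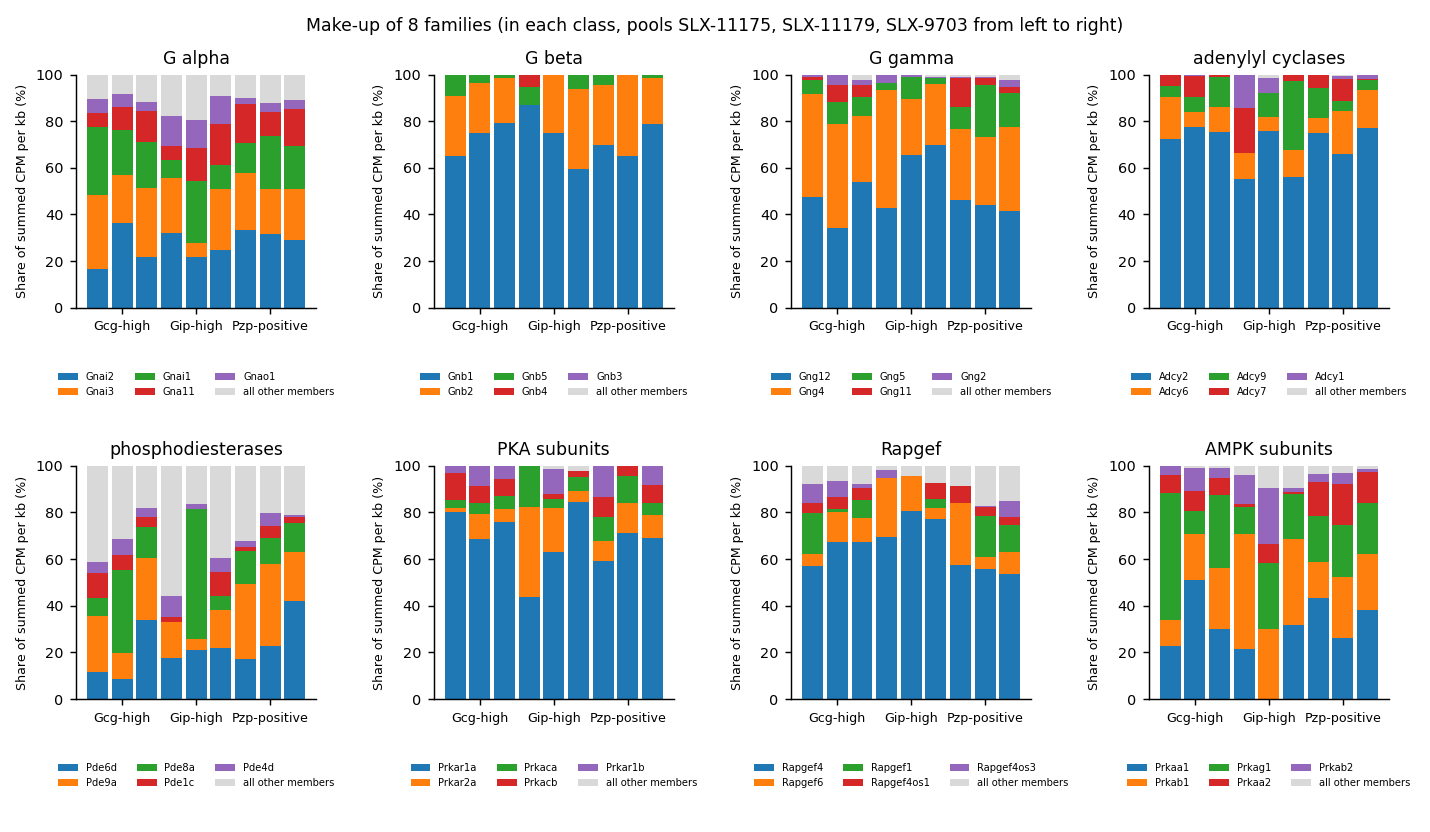
Share of the summed CPM per kb of 8 families (y axis, percent) that each of the 5 leading members and all other members hold in each sum (x axis: 3 classes, pools from left to right). A single colour fills most of nearly every bar for beta subunits, adenylyl cyclases, PKA subunits and Rapgef genes (antisense RNAs included), and many colours share it for phosphodiesterases.

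Of the 10 adenylyl cyclases, Adcy2, a form that beta and gamma subunits stimulate, held 55.1 to 77.5% of the summed CPM per kb. It was at 74.2, 97 and 49.99 CPM in Gcg-high, 32.1, 54.6 and 37.7 CPM in Gip-high and 54.1, 44.6 and 57.8 CPM in Pzp-positive sums. Gip-high was the lower value beside Gcg-high in each pool, with a log2 fold change of -0.80 ± 0.51 and an adjusted p of 0.581 (edgeR). In pool SLX-9703, Adcy2 was the leading adenylyl cyclase per kb in 12 of 19 Gcg-high, 6 of 10 Gip-high and 20 of 28 Pzp-positive cells, and Adcy6 or Adcy9 led most of the others. Adcy6, a form that calcium inhibits, was at 6.83 to 30.2 CPM and Adcy9 at 0 to 24.8 CPM. Adcy7 reached 17.8 CPM, and Adcy1 was not tested with a mean of 5.21 CPM. Adcy3, Adcy4, Adcy5, Adcy8 and the soluble form Adcy10 had means over the pools under 0.1 CPM per kb in each of the 3 classes.

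Gucy2c was the only guanylyl cyclase of 9 that passed the filter, and held 99.0% or more of the summed CPM per kb of its family in each sum. It was at 214, 230 and 239 CPM in Gcg-high, 28.6, 164 and 221 CPM in Gip-high and 157, 107 and 168 CPM in Pzp-positive sums. Gcg-high values were above all Pzp-positive ones, and the Gip-high values ran across both, lowest in pool SLX-11175 with 8 reads. The log2 fold changes were 0.66 ± 0.52 for Gcg-high over Pzp-positive (adjusted p = 0.999) and -0.86 ± 0.54 for Gip-high over Gcg-high cells (adjusted p = 0.582, edgeR). All 19 Gcg-high, all 28 Pzp-positive and 9 of 10 Gip-high cells of pool SLX-9703 had a read of it. The soluble guanylyl cyclase, the receptor of nitric oxide, was nearly absent. Gucy1a1 and Gucy1b1 had means over the pools of 0.12 CPM per kb or less in each class.

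Phosphodiesterases were many and low: all 23 in the table had a read, 12 were tested, and the highest mean was 33.3 CPM. Pde6d, which carries prenylated proteins between membranes rather than acting as an enzyme, led per kb over the mean of the 3 classes. By the mean of a single class, Pde8a led in Gcg-high and Gip-high and Pde9a in Pzp-positive cells. The mean of Pde8a was 56.2 CPM in Gip-high and 23.3 CPM in Gcg-high sums, but Gip-high was the higher in 1 pool and the lower in 2. The level of Pde6d was 4.32, 6.28 and 23.3 CPM in Gcg-high, 17.8, 31.9 and 22.4 CPM in Gip-high and 15.8, 19.5 and 32.1 CPM in Pzp-positive sums. Its Gcg-high value was the lower one in each pool beside Pzp-positive, with a log2 fold change of -1.16 ± 0.80 (adjusted p = 0.999, edgeR). Pde8a and Pde9a, which prefer cyclic AMP and cyclic GMP, followed at 0 to 157 and 11.4 to 49.2 CPM. In pool SLX-9703 Pde6d was the leading phosphodiesterase per kb in 7 of 19 Gcg-high, 3 of 10 Gip-high and 12 of 28 Pzp-positive cells, Pde9a followed with 6 Gcg-high and 9 Pzp-positive cells, and a median Gcg-high or Pzp-positive cell had reads of 10 phosphodiesterases. About 8.34% of the exon length of Pde9a overlaps genes on the other strand.

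The cyclic GMP-inhibited forms were lower in Gcg-high cells by the pools' direction but did not pass. Pde3a, first by size among the members named for this comparison, was at 4.32, 8.38 and 14.2 CPM in Gcg-high and 24.8, 27.7 and 22.7 CPM in Pzp-positive sums. These values do not overlap, and the log2 fold change was -1.42 ± 0.88 (adjusted p = 0.999, edgeR). Pde3b showed 7.77, 12.6 and 10.7 CPM against 32.7, 17.4 and 14.4 CPM, again without overlap and at -1.13 ± 1.05 (adjusted p = 0.999, edgeR). In the Pzp-positive sums a single cell gave 79.3% of the 29 Pde3b reads in pool SLX-11175, 52.9% of 34 in SLX-11179 and 47.2% of 1259 in SLX-9703. In Gip-high sums the levels were 21.4, 38.7 and 5.92 CPM for Pde3a and 0, 4.55 and 27 CPM for Pde3b, across the range of the other classes.

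Pde7a, a form specific for cyclic AMP, was higher in Gip-high sums in each pool, at 42.8, 22.8 and 16.3 CPM against 0, 6.28 and 4.63 CPM in Gcg-high and 9.01, 1.03 and 3.32 CPM in Pzp-positive sums. The Gip-high values lay above all others, but they rest on few cells: 1 of 10 cells gave all 12 reads in pool SLX-11175, and 1 cell gave 94.6% of the 168 reads in pool SLX-9703. The log2 fold changes were 2.59 ± 1.27 over Gcg-high (adjusted p = 0.42) and 2.72 ± 1.26 over Pzp-positive cells (adjusted p = 0.348, edgeR). Pde7a is also expressed in lymphocytes, and 7 leukocyte genes summed to 228, 75.1 and 0.8 CPM in Gip-high, 120, 92.1 and 0.4 CPM in Gcg-high and 166, 64.6 and 0.4 CPM in Pzp-positive sums. Their part in the result was not tested, and in pool SLX-9703, where these genes were near 0, the Pde7a values were 16.3, 4.63 and 3.32 CPM. Pde11a, which cleaves both cyclic nucleotides, was at 10.7, 6.83 and 16.6 CPM in Gip-high and 5.63, 5.64 and 0.867 CPM in Pzp-positive sums (log2 fold change 2.08 ± 1.24, adjusted p = 0.506, edgeR), with 93.6% of its Gip-high reads in pool SLX-9703 from 1 cell. Pde8b stood at 32.1, 9.11 and 3.68 CPM in Gip-high and 8.63, 2.09 and 3.44 CPM in Gcg-high sums (1.5 ± 1.16, adjusted p = 0.658, edgeR).

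Prkar1a, the type I alpha regulatory subunit, held 43.7 to 84.6% of the summed CPM per kb of the PKA subunits over the 9 sums. It was at 301, 253 and 334 CPM in Gcg-high, 46.4, 266 and 416 CPM in Gip-high and 196, 246 and 235 CPM in Pzp-positive sums, the Gcg-high values lying above all Pzp-positive ones. The log2 fold change of Gcg-high over Pzp-positive cells was 0.42 ± 0.52 (adjusted p = 0.999, edgeR), and Prkar1a led the family per kb in all 19 Gcg-high, 8 of 10 Gip-high and 27 of 28 Pzp-positive cells of pool SLX-9703. Prkar2a, a type II regulatory subunit, was at 10.4, 56.5 and 35.4 CPM in Gcg-high and 41.7, 63.6 and 49.3 CPM in Pzp-positive sums (-0.75 ± 0.57, adjusted p = 0.999, edgeR). Prkar2b, the other type II form, was at 0, 4.55 and 8.82 CPM in Gip-high sums and at most 0.156 CPM in Gcg-high and Pzp-positive sums, with all 91 Gip-high reads of pool SLX-9703 from 1 cell.

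The catalytic subunit gene Prkacb was low in Gip-high cells. Its level was 0, 18.2 and 24.8 CPM in Gip-high sums, 88.9, 52.3 and 63.1 CPM in Gcg-high sums and 59.7, 29.7 and 54 CPM in Pzp-positive sums. All Gip-high values lay below all others, and the 0 reads of pool SLX-11175 allow up to 10.7 CPM. Of the 8 Gip-high reads in pool SLX-11179, 87.5% came from 1 cell, and of the 256 in pool SLX-9703, 58.2% did. The log2 fold change was -2.10 ± 0.74 over Gcg-high (unadjusted p = 0.0124, adjusted p = 0.22) and -1.56 ± 0.73 over Pzp-positive cells (adjusted p = 0.354, edgeR), and over 20 alternatives the adjusted p ran from 0.0701 to 0.565 and from 0.178 to 0.886, so that the difference did not pass in any of them. Prkaca, the other catalytic subunit, was at 6.91 to 15, 9.11 to 17.6 and 9.92 to 23.1 CPM in the 3 classes.

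Rapgef4 (Epac2), the cyclic AMP sensor known from hormone secretion in islet and gut cells, held 61.9 to 86.6% of the summed CPM per kb of the 7 protein-coding Rapgef genes. It stood at 118, 94.2 and 82 CPM in Gcg-high, 132, 61.5 and 171 CPM in Gip-high and 91.3, 86.1 and 69.8 CPM in Pzp-positive sums, with overlap of all classes. The log2 fold changes were 0.24 ± 0.47, 0.29 ± 0.48 and 0.53 ± 0.48 in the 3 comparisons (adjusted p = 0.999, 0.859 and 0.701, edgeR). A read of Rapgef4 was present in nearly every cell: in 19 of 19, 10 of 10 and 28 of 28 cells of pool SLX-9703, in 16 of 16, 10 of 10 and 14 of 14 cells of pool SLX-11175 and in 17 of 18, 5 of 5 and 22 of 22 of pool SLX-11179 (Gcg-high, Gip-high, Pzp-positive). Prkar1a, with more reads in 8 of the 9 sums, was seen in 5 of 10 Gip-high cells of pool SLX-11175 from 13 reads, where Rapgef4 had 37. Rapgef3 (Epac1) had a mean over the pools of 0.98 CPM per kb or less in each of the 3 classes. Rapgef1, an exchange factor without a cyclic nucleotide site, was at 0, 0 and 9.21 CPM in Gip-high and 40.6, 2.09 and 10.3 CPM in Gcg-high sums (log2 fold change -2.15 ± 1.77, adjusted p = 0.683, edgeR), with 80.9% of the 47 Gcg-high reads in pool SLX-11175 from 1 cell.

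The prefix Prka also takes in the subunits of AMP-activated kinase, an energy sensor that responds to AMP and not to cyclic AMP, and there the only call lay. Prkaa2, the alpha 2 catalytic subunit (chr4:105029874-105109890, minus strand, GRCm38), fell in Gip-high against Pzp-positive cells. Its level was 3.57, 4.55 and 1.84 CPM in Gip-high sums (1, 2 and 19 reads), 41.7, 51.3 and 33 CPM in Pzp-positive sums (37, 100 and 2892 reads) and 25.9, 13.3 and 17.5 CPM in Gcg-high sums (30, 19 and 1117 reads). The values of the 3 classes did not overlap, with Pzp-positive sums highest, Gcg-high sums between and Gip-high sums lowest in each pool, but few reads lie behind the Gip-high values of the shallow pools.

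The log2 fold change of Prkaa2 in Gip-high over Pzp-positive cells was -3.84 ± 0.88 (SE) with an adjusted p of 0.0276 (edgeR), lower in 3 of 3 pools. The ratio of the levels was 0.0856, 0.0888 and 0.0559 in the pools, with 95% counting intervals of 0.00211 to 0.508, 0.0106 to 0.329 and 0.0336 to 0.0874. Over Gcg-high cells the log2 fold change was -2.69 ± 0.87 (unadjusted p = 0.00732, adjusted p = 0.175), with ratios of 0.138, 0.343 and 0.106 and counting intervals of 0.00338 to 0.829, 0.0388 to 1.42, which includes 1, and 0.0633 to 0.166. Gcg-high over Pzp-positive gave -1.14 ± 0.71 (adjusted p = 0.999, edgeR). In pool SLX-9703, 4 of 10 Gip-high, 12 of 19 Gcg-high and 24 of 28 Pzp-positive cells had a read of Prkaa2. After each cell was thinned to 20000 reads, a read was left in 1 of 25 Gip-high, 12 of 53 Gcg-high and 25 of 64 Pzp-positive cells of the 3 pools. No exon of another gene overlaps it in the annotation.

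Prkaa2 was called in 13 of 20 alternatives and lost the call in the other 7, with the same direction in all 20. Without pool SLX-11175, SLX-11179 or SLX-9703 the log2 fold change was -4.01, -3.99 or -3.38, with adjusted p-values of 0.132, 0.157 and 0.248 (edgeR). Where the 5 cells past more than 1 threshold were assigned, by Gip first, it was -1.21 with an adjusted p of 0.617, and over Gcg-high cells -0.06 with an adjusted p of 0.99 (edgeR). The 1 such cell of pool SLX-9703, put among the Gip-high cells, held 670 reads of Prkaa2 (221 CPM) beside the 19 of the 10 others. In pool SLX-11175 the 2 cells put among the Gip-high cells held 5 reads (25.4 CPM) beside the 1 of the 10 others, and the 1 put among the Gcg-high cells held 9 reads (218 CPM), while the 1 of pool SLX-11179 held 0. The other losses were at a minimum of 50000 reads per cell (-3.89, adjusted p = 0.0743), at a minimum of 100000 (-4.54, adjusted p = 0.234) and with each cell thinned to 20000 reads (-3.44, adjusted p = 0.0983, edgeR).

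**Figure D4:**
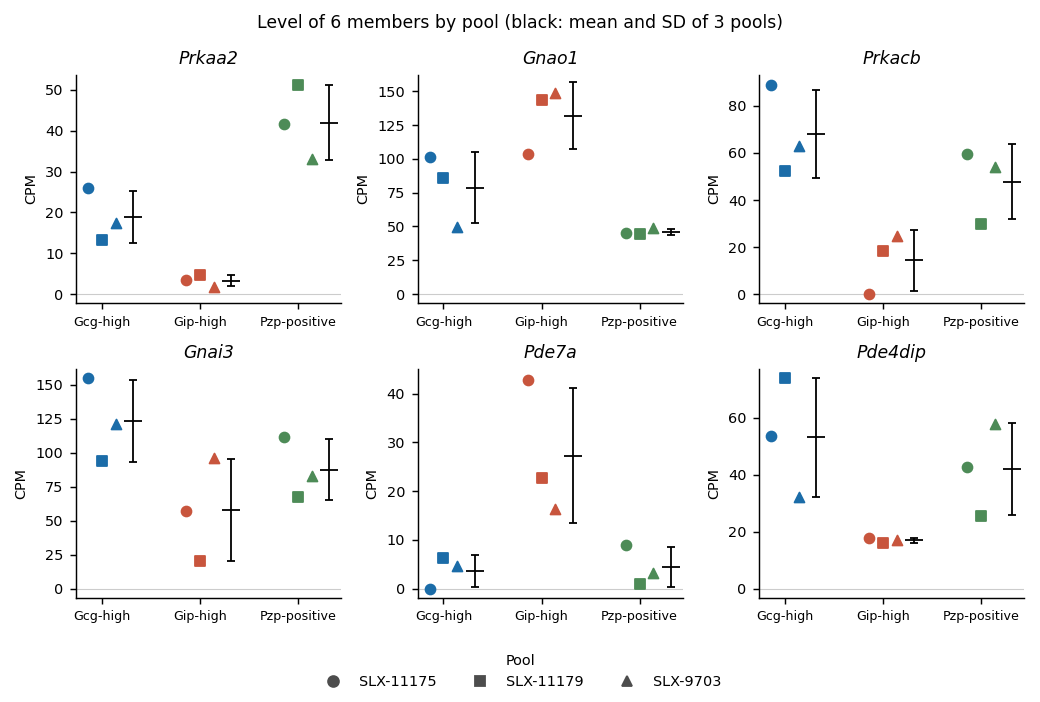
Level in CPM (y axis, linear) of Prkaa2, Gnao1, Prkacb, Gnai3, Pde7a and Pde4dip in the 3 classes (x axis), 1 symbol per pool, with the mean and SD of the 3 pools in black. The Prkaa2 values of the 3 classes do not overlap, with Gip-high sums between 1.84 and 4.55 CPM, although edgeR called only Gip-high against Pzp-positive cells. In Gnao1, Prkacb, Pde7a and Pde4dip the Gip-high sums stand apart from the other classes without passing the test.

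No partner subunit passed the test. Prkaa1, the alpha 1 subunit, was the leading AMP-activated kinase gene per kb over the mean of the 3 classes. In Gip-high cells Prkab1 led, with a mean share of 38.8% of the family's summed CPM per kb against 17.75% for Prkaa1. The level of Prkaa1 was 44, 46.1 and 43.8 CPM in Gcg-high, 28.6, 0 and 36.2 CPM in Gip-high and 73.2, 44.1 and 56.3 CPM in Pzp-positive sums. Gip-high values were the lowest here too, with a log2 fold change of -1.54 ± 0.77 over Pzp-positive cells (adjusted p = 0.394, edgeR). Prkag2, a gamma subunit that binds the nucleotide, was at 0, 0 and 1.88 CPM in Gcg-high, 7.14, 4.55 and 14.9 CPM in Gip-high and 7.89, 7.69 and 2.87 CPM in Pzp-positive sums, lowest in Gcg-high sums. It rests on few cells: 2 reads of 1 cell in each shallow Gip-high sum, and in pool SLX-9703 a single cell gave 68.8% of the 154 Gip-high and 73.4% of the 252 Pzp-positive reads. Its log2 fold changes were -3.44 ± 1.52 for Gcg-high over Pzp-positive (unadjusted p = 0.0395, adjusted p = 0.999) and 3.62 ± 1.42 for Gip-high over Gcg-high cells (unadjusted p = 0.0226, adjusted p = 0.291, edgeR), and 14.5% of its exon length overlaps 2 antisense genes, Prkag2os1 and Prkag2os2. Prkab1 was at 11.9 to 24.7, 6.83 to 42.8 and 16.9 to 29.2 CPM in the 3 classes, and Prkag1, of whose exon length 43.7% overlaps a gene on the other strand, at 4.19 to 49.2, 4.55 to 10.1 and 15.1 to 17.4 CPM.

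The prefixes also took in genes outside these families. Pde4dip (myomegalin), an anchor of phosphodiesterase 4 and PKA at the Golgi and the centrosome, was at 17.8, 15.9 and 17.3 CPM in Gip-high, 53.5, 74 and 32.1 CPM in Gcg-high and 42.8, 25.6 and 57.8 CPM in Pzp-positive sums. All Gip-high values lay below all others, from 5 reads of 1 cell in pool SLX-11175, 7 reads in SLX-11179 (71.4% from 1 cell) and 178 reads in SLX-9703, with log2 fold changes of -1.64 ± 0.64 over Gcg-high (unadjusted p = 0.0215, adjusted p = 0.285) and -1.31 ± 0.63 over Pzp-positive cells (adjusted p = 0.365, edgeR). Over the mean of the classes, the pseudogene Gng5-ps led this group at 10.4 CPM per kb. With an exon length of 0.205 kb it had at most 6.83 CPM, was not tested and may share reads with Gng5. Adcyap1, which encodes the peptide PACAP, and its receptor gene Adcyap1r1 had means over the pools of 0.05 CPM per kb or less in each class.

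Pde6g and Gnb1l, which did not pass the filter of the edgeR fit, had few reads or few cells where DESeq2 called them (and, for Pde6g, edgeR without that filter). Pde6g, a subunit of the rod phosphodiesterase, had 5, 0 and 124 reads in Gip-high sums, each from 1 cell, and 0, 0 and 1 in Pzp-positive and none in Gcg-high sums. Gnb1l, which encodes a WD repeat protein outside the beta subunits, had no read in Gip-high sums, 12, 0 and 0 in Gcg-high and 2, 1 and 298 in Pzp-positive sums. Of the 101 members, 45 had a read but did not pass the filter, at means of at most 5.21 CPM, and 6 had none in the cells used (Gnb3, Gng13, Gng8, Gucy1a2, Prkag2os2 and Rapgef3os1).

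Other genes of the pathway were followed through 9 lists. The clearest was among the 3 PKA inhibitors: Pkib was at 311, 134 and 201 CPM in Gip-high sums, 6.04, 0 and 0.0469 CPM in Gcg-high sums and 0, 0 and 0.0114 CPM in Pzp-positive sums. It rose in Gip-high over Gcg-high (adjusted p = 0.000958) and over Pzp-positive cells (adjusted p = 9.75e-05, edgeR), and since its other sums are at or near 0 the size of the fold is not given. Pkib is a gene that the study picked from these cells as a marker of Gip cells, so it is not independent evidence. Pkia and Pkig, the other inhibitors, were not called, at 17.8 to 31.9 and 0 to 43.2 CPM in Gip-high sums.

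By edgeR, 0 of the 41 tested genes of the other 8 lists were called in any of the 3 comparisons, while 1, 4 and 5 had an unadjusted p under 0.05 (4.33%, 12.8% and 14.1% of all genes) and DESeq2 called 1 of 75, 3 of 64 and 6 of 62 (0.787%, 3.32% and 5.05% of all genes). The lists had 8 of 15 A-kinase anchoring proteins, 12 of 13 genes of the CREB family and its coactivators, 5 of 7 genes of phospholipase C beta and the IP3 receptors, 7 of 11 receptor kinases, arrestins and chaperones, 4 of 6 genes around AMP-activated kinase, 2 of 15 other cyclic nucleotide effectors, 2 of 7 other alpha subunits, and 1 of 7 guanylyl cyclase ligands and natriuretic peptide receptors tested. Nearest in Gip-high over Pzp-positive cells were Prkg2, the cyclic GMP-dependent kinase of intestinal epithelium, at 35.7, 125 and 39.9 CPM in Gip-high against 0, 13.3 and 5.38 CPM in Pzp-positive sums (log2 fold change 3.40 ± 0.92, adjusted p = 0.0638), Itpr1, an IP3 receptor, at 78.5, 66 and 119 against 36.1, 12.8 and 20.0 CPM (2.04 ± 0.56, adjusted p = 0.068), and Grk6, a receptor kinase, at 0, 0 and 0.194 against 12.4, 3.08 and 10.6 CPM (adjusted p = 0.074, edgeR). These 3 were named after their values were seen. DESeq2 called them and also Hcn4, Itpr3 and Plcb1 in this comparison. The Gip-high sums lay above all Pzp-positive ones for Prkg2 and Itpr1, and for Grk6 the 0 reads in pools SLX-11175 and SLX-11179 allow up to 10.7 and 6.83 CPM, within the Pzp-positive range.

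The 103 cells past no threshold (32, 41 and 30 in the pools) held leukocyte genes at a summed 395330, 186260 and 392 CPM, in pools SLX-11175 and SLX-11179 mainly Igkc and Jchain, and gave levels of the leading members within or near those of the 3 classes. Gng12 was at 138, 251 and 233 CPM, Prkar1a at 179, 168 and 302 CPM, Gnb1 at 132, 143 and 337 CPM and Gucy2c at 170, 192 and 189 CPM. Prkaa2 stood at 31.2, 21.2 and 17 CPM, above every Gip-high sum. Gnao1 stood at 12.9, 34.8 and 51.5 CPM, below every Gip-high sum.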

How the data were processed

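The authors deposited a raw count of reads for each gene in each of 288 cells. The table has 46078 mouse genes, 92 spike-ins and 5 summary lines without a gene. By the submitters' processing notes, reads were aligned with GSNAP to mm10 and counted with HTSeq (0.5.3p3), and the annotation version is not given in the sources used here. The lines without a gene held 77.6% of all counts and entered neither library sizes nor tests, and 4 columns that match no sample were not used. The protocol does not mark the strand. Symbols, exon lengths and overlaps came from GENCODE M21 (GRCm38).

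For each class with 3 or more cells in a pool, counts were added up and the 9 sums were fitted in 1 model with edgeR 4.0.16 (R 4.3.3; TMM, filterByExpr, quasi-likelihood test, Benjamini-Hochberg adjustment over all genes tested, threshold 0.05). The pool named in the labels was a block, and the labels do not say whether its cells were sequenced together. For sums of 1 pool and different classes, deviations from the class means correlated at 0.0237 to 0.409 (median 0.0997, n = 9). For sums of different pools and different classes, the correlations were -0.201 to 0.0766 (median -0.102, n = 18). The median was higher within a pool, but the ranges overlapped. DESeq2 1.42.0 and 19 further alternatives were run. The sums held 420453 to 58925336 reads on mouse genes. Doublets were not searched for in these sorted wells. Members were named where called and where leading a family per kb over the mean of the 3 classes. They were also named where among the 6 largest changes of a comparison with at least 10 CPM and 1 direction in all pools. Members, lists and thresholds were chosen with earlier results of these data known.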

Additional observations from a re-analysis of the deposited data

How the results depend on the processing

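The counts of called members depended on the processing in the Gip-high comparisons. Between Gip-high and Gcg-high cells, where 0 members were called, DESeq2 called 3 and a fit with no filter on low counts 1 (Pde6g). Between Gip-high and Pzp-positive cells, where 1 was called, at least 100000 reads per cell gave 0, a Gcg threshold of 30000 CPM 2, DESeq2 4, no filter 2, and the cells past no threshold as 1 more class 2 (Prkaa2 and Prkar2b), and leaving out each pool in turn gave 0 to 0. The cause was not tested, though fewer cells or pools enter some of these. Without the replicate block, in which the pool pairs the sums, 1 member, again Prkaa2, was called in Gip-high over Pzp-positive cells and 0 in the other comparisons. The 1 member called in Gip-high over Pzp-positive cells was another than Prkaa2 in 3 alternatives: Gng12 at 50000 or more reads per cell, and Gnao1 with the cells past more than 1 threshold assigned and with cells thinned to 20000 reads. Gcg-high over Pzp-positive gave 0 members in all 20 alternatives. Among the members named for a call or for the size of a change, none changed the sign of that fold change in an alternative that gave a value, and the family leaders named for their level alone were not followed. Library sizes without Gcg, Gip, Pzp and mitochondrial genes moved the median of all genes in Gip-high over Pzp-positive cells from -0.24 to -0.39 and in Gip-high over Gcg-high cells from -0.24 to -0.34. DESeq2, on 28720 genes in place of 9656, gave 0.47 and 0.39. Levels in the Gip-high sums of pools SLX-11175 and SLX-11179 are limited by depth: 1 read is worth 3.57 and 2.28 CPM there.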
